A study of Mus musculus with 10 samples.

Results

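A set of 43 lysosomal genes was followed in bone-marrow-derived macrophages of mice that overexpress human WDFY3. The set held 12 glycosidases, 5 sulfatases, 8 lipid hydrolases or their activators, 1 peptidase and 2 acid phosphatases, 2 cholesterol exporters, 6 membrane proteins, 4 channels or transporters, and the 3 transcription factors Tfeb, Tfe3 and Mitf. The members are a list of symbols named for their known lysosomal role, drawn up with earlier results of these data known. All 43 were found among the 54307 genes of the count table and all were among the 12411 genes with enough reads to test. The lowest estimated count of any member in any library was 434.

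The study sequenced 10 libraries from male mice aged 6 to 8 weeks, 5 from wild-type controls and 5 from mice with both copies of the human WDFY3 knock-in allele (hWDFY3KI/KI). Marrow cells of both groups were grown into macrophages in medium conditioned by L-929 cells, a fibroblast line that secretes the growth factor M-CSF, and harvested on day 7. Poly(A)+ RNA was sequenced with strand-specific, paired reads of 100 bases. The sources used here do not give the strain, nor the promoter and locus of the knock-in. The titles number the libraries of each group as replicates, and each was taken here to be a separate mouse. On that reading the p-values measure the spread between mice together with that between their cultures and libraries.

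WDFY3 is a large scaffold protein known for its role in selective autophagy, in which cargo is wrapped in a membrane and carried to the lysosome. The lysosome breaks that cargo down with soluble acid hydrolases, exports the products through transporters in its membrane, and in macrophages also digests what the cell engulfs. Tfeb, Tfe3 and Mitf are related transcription factors that bind short DNA motifs in front of many lysosomal genes; nutrient signalling at the lysosome holds them in the cytoplasm by phosphorylation, so that their RNA level is only one part of their control.

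The core of the DNA motif read by these factors is CACGTG, which is its own reverse complement. RefSeq promoter windows (GRCm38.p6, from 250 bases before to 50 after a transcript start) were matched for 40 members, in 50 windows; Asah1, Galns and Npc1 had none. CACGTG lay in a window of 9 of these 40 genes (22.5%), against 7.15% of all 32851 windows and 8.09% of all genes in the same table. The longer word GTCACGTG, which contains the first, was present on either strand in 8 of the 40 member genes (20%), against 2.55% of all genes. The genes behind the background shares, 27025 in all, were not limited to those tested here. The shares therefore do not compare genes of like abundance. A match describes letters in a window and does not show binding. The stretches that hold the motif are printed 5′ to 3′ on the strand of the gene, with CACGTG in capitals, because they show how the motif is spaced in the members that carry it.
Lamp1, chr8:13159078-13159160, plus strand: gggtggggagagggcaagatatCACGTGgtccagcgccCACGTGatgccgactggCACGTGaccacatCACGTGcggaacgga
Mcoln1, chr8:3500426-3500486, plus strand: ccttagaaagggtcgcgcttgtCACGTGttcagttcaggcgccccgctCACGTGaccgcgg
Gla, chrX:134601172-134601254, minus strand: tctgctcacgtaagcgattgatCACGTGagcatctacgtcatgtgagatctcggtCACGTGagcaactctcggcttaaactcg
Glb1, chr9:114401008-114401057, plus strand: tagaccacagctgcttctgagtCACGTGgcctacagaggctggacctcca
Naglu, chr11:101069999-101070041, plus strand: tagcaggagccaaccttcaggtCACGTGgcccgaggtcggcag
Gaa, chr11:119267801-119267850, plus strand: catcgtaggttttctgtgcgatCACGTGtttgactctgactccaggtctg
Sgsh, chr11:119355512-119355561, minus strand: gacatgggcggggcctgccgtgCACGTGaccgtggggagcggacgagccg
Arsa, chr15:89477425-89477462, minus strand: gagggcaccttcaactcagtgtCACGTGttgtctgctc
Cln3, chr7:126583340-126583369, minus strand: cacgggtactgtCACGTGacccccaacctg

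The windows of these 9 genes hold 15 copies of the motif, 4 of them in Lamp1, and 10 of the 15 lay within 100 bases of the start. All 15 were upstream of the annotated start that defined their window. The Cln3 stretch belongs to an alternative start inside the gene and shows the nearer of its 2 copies. All 30 of its bases lie in annotated exons of the gene. The same holds for 30 of the printed bases of Naglu, 30 of Mcoln1, 25 of Sgsh and 1 of Arsa. For these genes the annotation thus holds a start further upstream than the one that defined the window. The 9 genes that carry the motif had a median log2 difference between knock-in and control of 0.027, with 6 of them higher in the knock-in. The 31 matched genes without it had a median of 0.0098, with 17 higher.

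The 10 libraries held from 14.6 M to 36.4 M estimated counts (M, 1e6), and the 43 genes took 3.34% to 4.05% of them. Levels are given as CPM, counts per 1e6 counts of a library, scaled by the TMM method. The mouse gene Wdfy3 was at 99.96 to 121 CPM in the controls and 111 to 127 CPM in the knock-ins; the table counts mouse genes, so this value does not check the human transgene. Macrophage markers were present in every library, all 12 listed among the tested genes, and summed to between 25511 and 38946 CPM. Lymphoid markers summed to at most 5.05 CPM and mast cell or basophil markers to at most 6.21 CPM. Stromal cell markers, such as collagens (12 of 15 listed were tested), were uneven, and they summed to 226, 25.5, 15.6, 224 and 16.9 CPM in controls 1 to 5 and to 13.1, 30.9, 45.05, 154 and 16.3 CPM in knock-ins 1 to 5. Controls 1 and 4 and knock-in 4 thus stood apart from the other 7 libraries. Neutrophil markers (8 of 13 listed were tested) were also highest there, at 224 to 297 CPM in sum against 53.4 to 126 CPM in the other 7, where Ly6g was at 0.

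As measured per length, the 43 genes were abundant in these macrophages. CPM values were divided by the length of each gene's merged exons in kilobases, which allows levels of different genes to be set side by side. On this scale every member was above the median of the tested genes and 22 were above their 90th percentile. Psap, the precursor of the saposins that present sphingolipids to their hydrolases, had the highest level, 6892 ± 1083 and 7993 ± 604 CPM per kb in controls and knock-ins (mean ± SD, n = 5 each), and only 7 tested genes were higher. Lamp1, a heavily glycosylated protein of the lysosomal membrane, followed at 956 ± 28.5 and 932 ± 48.5 CPM per kb. Hexa, the alpha subunit of beta-hexosaminidase, was at 447 ± 43.9 and 477 ± 28.6 CPM per kb, and Lipa, the acid lipase that frees cholesterol and fatty acids, at 472 ± 50.7 and 428 ± 30.6 CPM per kb. The ranges of Hexa, 397 to 517 CPM per kb over the 10 libraries, and Lipa, 400.4 to 555 CPM per kb, overlapped. Their order was thus not resolved on this scale. It depended on the length used: per kilobase of the longest transcript Lipa was at 783 and Hexa at 462 CPM per kb as means of the 10 libraries. At the low end stood Arsb, a sulfatase of dermatan sulfate, at 7.08 ± 0.494 and 6.44 ± 0.573 CPM per kb. Among the 3 transcription factors Mitf was highest, with a range over the 10 libraries of 20.8 to 26.3 CPM per kb. Tfe3 followed at 13.9 to 15.6 CPM per kb and Tfeb at 7.05 to 11.03 CPM per kb, and these 3 ranges did not overlap. The order of Tfe3 and Tfeb depended on the length used: per kilobase of the longest transcript Tfeb was at 22.5 and Tfe3 at 21.5 CPM per kb as means of the 10 libraries. Over the whole set, 6 of the 43 genes stood apart from the next in order, with no overlap between their ranges over the 10 libraries. With the longest transcript in place of merged exons the order had a Spearman correlation of 0.96 with the first (across genes, which are not independent), and 5 members moved by more than 5 ranks, Galc the most, by 12.

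**Figure D1:**
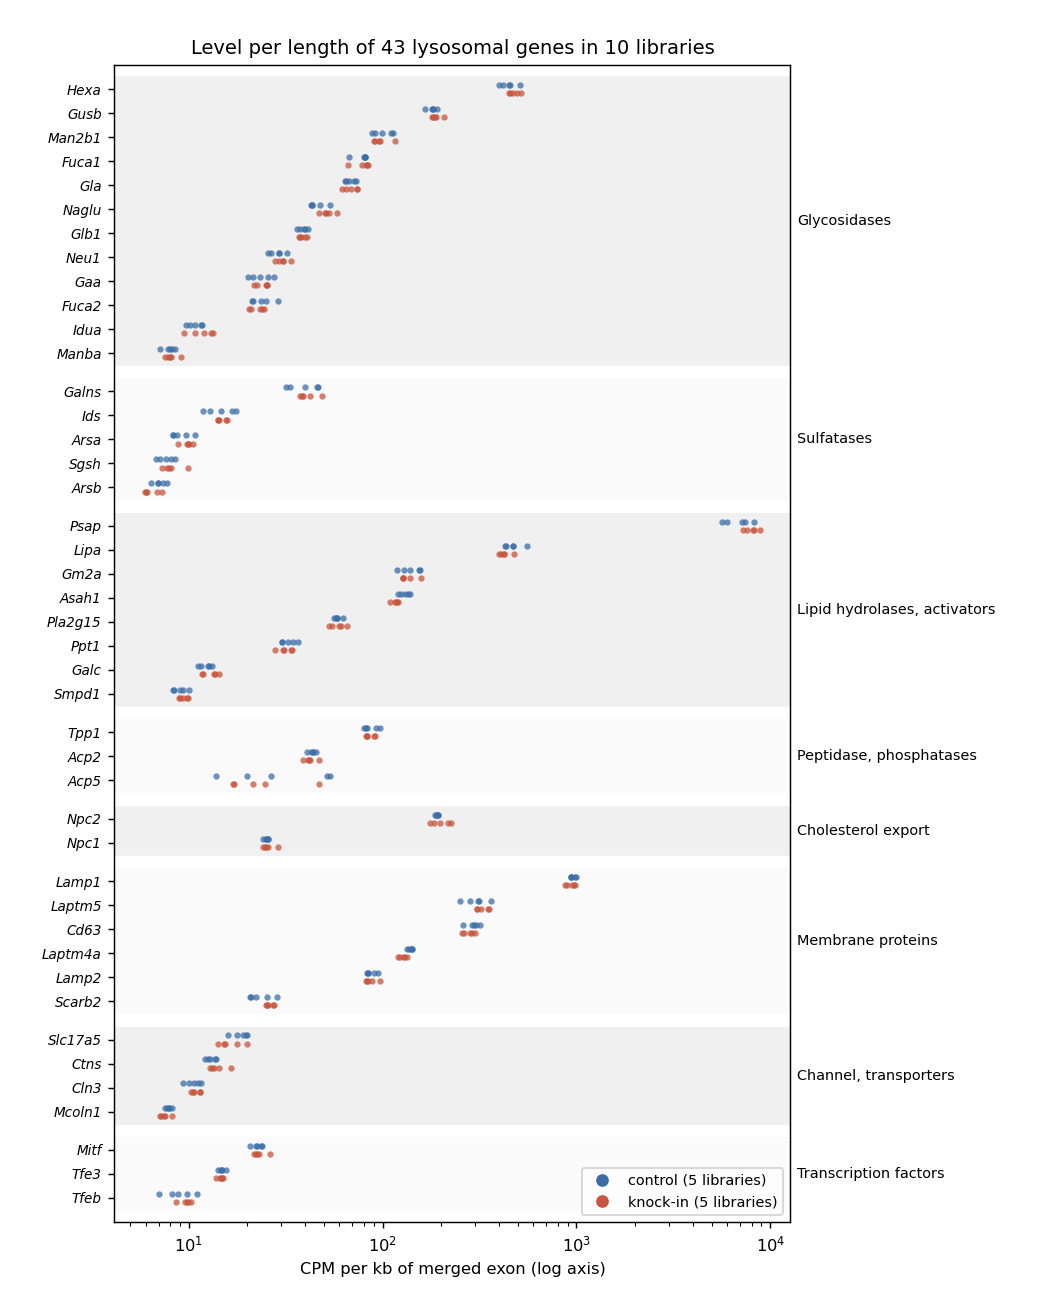
Level of each of the 43 genes per kilobase of merged exon in every library, on a log axis, grouped by role, with control libraries in blue and knock-in libraries in red. Psap stands highest, and the points of both genotypes overlap for every gene.

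The comparison of genotypes asked whether overexpression of human WDFY3 was accompanied by a different level of these genes. No member passed the test: edgeR's quasi-likelihood fit gave 0 of 43 a Benjamini-Hochberg adjusted p below 0.05, and 10 of all 12411 genes (0.0806%). At an unadjusted p under 0.05 there were 3 members, against 6.21% of all genes, which is a share near the background. That count was 7 without control 3 and 1 without control 2. By direction, 1 of the 3 was higher in the knock-in, against 3.29% of all genes, and 2 were lower, against 2.92%. DESeq2 called 0 members (0.227% of its 19828 genes with an adjusted p) and 4 at an unadjusted p under 0.05 (3.76% of its 24020 genes). That fit had no filter on low counts, so its shares have a wider base than those of edgeR. Limma-voom called 0 members (0.0967% of all 12411 genes) and 3 before adjustment (6.95%). Limma-trend on the deposited log2 values called 0 (0.0555% of its 14409 genes) and 3 before adjustment (6.01%). Without the 3 libraries rich in stromal RNA, edgeR called 0 members (0.304% of the 12485 genes then tested) and 3 before adjustment (6.9%). The CPM of the groups overlapped for all 43 members, and 1.32% of all genes had groups that did not overlap. The log2 difference was above 0, that is higher in the knock-in, for 25 members and below 0 for 18, with a median of 0.014; over all tested genes the median was -0.0046 and 48.3% were above 0.

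The intervals show what size of difference these libraries leave room for. For 42 of the 43 members the 95% interval of the difference lay within 1.5-fold in either direction, against 79.5% of all tested genes; Acp5 was the exception. For 41 members it lay within 1.3-fold, against 64.9% of all genes, and Psap and Acp5 reached outside that narrower range. The lowest mean was 30.8 CPM among members and 0.392 CPM among all tested genes. These shares therefore do not compare genes of like abundance and do not show the members to be unusually stable. The spread of genes in the members' CPM range is given below. In simulated data of the same depth and estimated spread (12411 genes, knock-in against control), edgeR recovered 44% of genes changed by 1.3-fold and 76% of genes changed by 1.5-fold, 50 genes at each size. The changed genes were drawn at random from tested genes above a low CPM limit, and 9 unchanged genes were also called. The adjusted threshold also depends on how many genes change, which the simulation set. These shares are therefore not the power of the test for the 43 members.

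**Figure D2:**
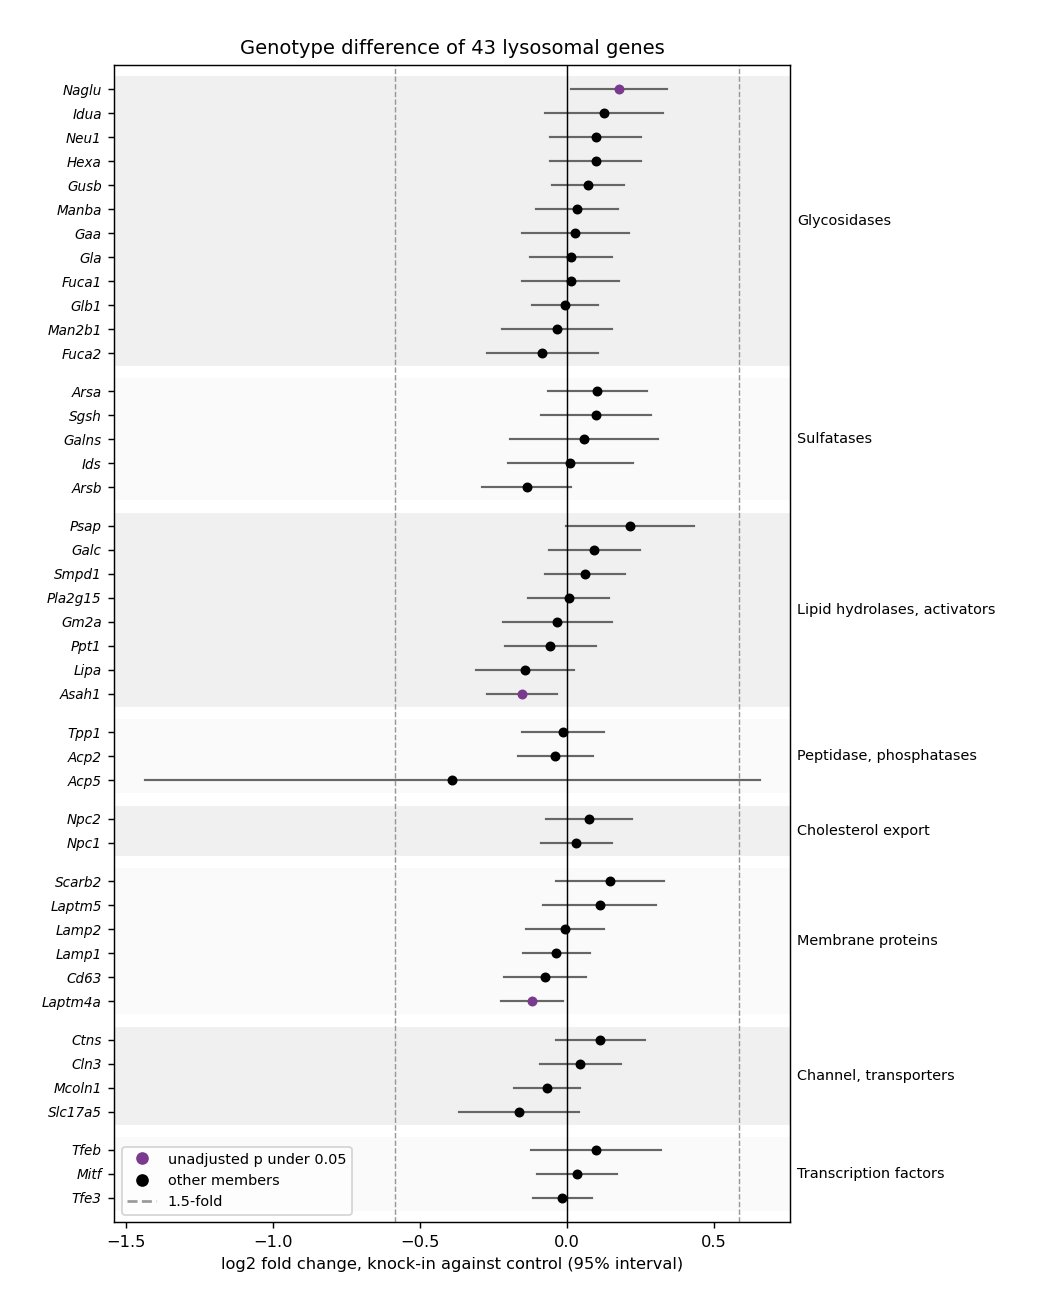
Log2 fold change of each gene, knock-in against control, with its 95% interval, grouped by role and ordered by size; dashed lines mark 1.5-fold. All points except Acp5 lie close to 0, and Asah1, Laptm4a and Naglu, in purple, are the 3 with an unadjusted p under 0.05.

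Glycosidases remove sugars from glycoproteins, glycolipids and glycosaminoglycans, and they were the largest role in the set. Of the 12, 9 had a higher and 3 a lower mean in the knock-in, with a median log2 difference of 0.031, and 0 passed the adjusted test. Naglu, which removes N-acetylglucosamine from heparan sulfate (ENSMUSG00000001751, chromosome 11, 101070012 to 101077672, plus strand in GRCm38), had the smallest p of the group. Naglu was at 114, 115, 143, 126 and 115 CPM in controls 1 to 5 and at 125, 136, 135, 142 and 155 CPM in knock-ins 1 to 5. Control 3 lay above 4 of the 5 knock-ins, control 4 lay just above the lowest knock-in, and the other 3 controls lay below every knock-in. The log2 difference was 0.18 ± 0.076 (SE), with an unadjusted p of 0.0361 and an edgeR adjusted p of 0.780 (range over the alternative settings 0.469 to 0.987).

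Idua, the iduronidase that acts on heparan and dermatan sulfate, was at 48.4, 40.8, 45.3, 49.1 and 42.5 CPM among controls and at 55.1, 56.4, 39.8, 50.5 and 45.3 CPM among knock-ins. Knock-ins 1, 2 and 4 were above every control and knock-in 3 was below every control, so the groups overlapped (log2 difference 0.13 ± 0.093, edgeR adjusted p 0.856). Hexa, whose product splits GM2 ganglioside, was at 837, 912, 1023, 792 and 894 CPM among controls and 904, 941, 988, 899 and 1033 CPM among knock-ins. Its highest control, control 3, was almost level with its highest knock-in, knock-in 5 (log2 difference 0.10 ± 0.071, edgeR adjusted p 0.856). Neu1, the sialidase that trims sialic acid, was at 109, 99.4, 109, 120.4 and 95.5 CPM among controls and 104, 115, 109, 127 and 115 CPM among knock-ins, again with control 4 above 4 of the 5 knock-ins (log2 difference 0.10 ± 0.071, edgeR adjusted p 0.856).

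The remaining 8 glycosidases had log2 differences from -0.084 (Fuca2, a fucosidase) to 0.072 (Gusb, beta-glucuronidase). Gusb was at 819 ± 38.7 CPM in controls and 861 ± 52.5 CPM in knock-ins (mean ± SD, n = 5 each). Gaa, the acid glucosidase that digests glycogen, was at 113 ± 14.2 CPM in controls and 115 ± 8.32 CPM in knock-ins. The alpha-galactosidase gene Gla, at 222 ± 12.6 and 224 ± 17.5 CPM in controls and knock-ins, and the beta-galactosidase gene Glb1, at 117 ± 5.63 and 116 ± 4.86 CPM, differed between the groups by less than 1 SD. Manba, the beta-mannosidase, was at 55.3 ± 3.77 and 56.6 ± 4.20 CPM in controls and knock-ins. Man2b1, the alpha-mannosidase, was at 807 ± 88.97 and 788 ± 83.9 CPM, Fuca1, the main lysosomal fucosidase, at 256 ± 20.1 and 258 ± 23.99 CPM, and Fuca2 at 148 ± 19.3 and 139.6 ± 11.5 CPM. All of these differences were smaller than the spread between libraries.

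Sulfatases take sulfate groups off glycosaminoglycans and sulfolipids. Of the 5, 4 had a higher and 1 a lower mean in the knock-in, with a median log2 difference of 0.059, and 0 passed the adjusted test. Arsb was the lower one, at 46.5, 42.2, 44.4, 42.2 and 38.5 CPM in controls 1 to 5 and 41.2, 43.8, 36.4, 36.02 and 36.9 CPM in knock-ins 1 to 5. Knock-ins 3, 4 and 5 were below every control, and knock-ins 1 and 2 lay among the controls (log2 difference -0.14 ± 0.070, unadjusted p 0.0689, edgeR adjusted p 0.806). An antisense gene, Gm26527, matches 42.7% of the Arsb transcript at 100% identity, and the sources used here do not say whether the counting used strand.

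Galns, the sulfatase of keratan sulfate, had one of the 3 largest spreads within a group, 14.5% as a coefficient of variation. It was at 124, 88.6, 105, 121 and 84.4 CPM among controls and 101, 99.3, 103, 129 and 113 CPM among knock-ins, with its high values in controls 1 and 4 and knock-in 4 (log2 difference 0.059 ± 0.12). Arsa, which desulfates the myelin lipid sulfatide, was at 33.6 ± 3.88 and 36.1 ± 2.29 CPM in controls and knock-ins. Sgsh, the heparan sulfamidase, was at 33.8 ± 3.10 and 36.1 ± 4.41 CPM, and Ids, the iduronate sulfatase, at 75.2 ± 12.4 and 75.6 ± 4.06 CPM.

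The lipid group breaks down sphingolipids, neutral lipids and phospholipids. Of its 8 genes 4 had a higher and 4 a lower mean in the knock-in, with a median log2 difference of -0.015, and 0 passed the adjusted test. Asah1, acid ceramidase (ENSMUSG00000031591, chromosome 8, 41340197 to 41374773, minus strand), had the smallest unadjusted p of the whole set. Asah1 was at 470.5, 457, 405, 419.9 and 444 CPM in controls 1 to 5 and at 399, 370.3, 394, 402 and 407 CPM in knock-ins 1 to 5. The knock-in values were close together, and only knock-in 5 exceeded the lowest control. The log2 difference was -0.16 ± 0.055, with an unadjusted p of 0.0144 and an edgeR adjusted p of 0.700 (range over the alternative settings 0.411 to 0.987).

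Psap (ENSMUSG00000004207, chromosome 10, 60277627 to 60302597, plus strand) had the largest positive difference of the set. It was at 20363, 15429.9, 19574, 22737 and 16456 CPM in controls 1 to 5 and at 19928, 20738, 22266, 24184 and 22541 CPM in knock-ins 1 to 5. Controls 2, 3 and 5 were below every knock-in, control 1 lay between the lowest knock-ins, and control 4 was above 4 of the 5 knock-ins. The log2 difference was 0.21 ± 0.10, with an edgeR adjusted p of 0.799 (range over the alternative settings 0.306 to 1) and an unadjusted p of 0.0533. Lipa was at 3762, 3201, 2914, 3202 and 2927 CPM among controls and 2885, 2772, 2715, 3248 and 2883 CPM among knock-ins. Control 1 stood above all other libraries of Lipa and knock-in 4 was the highest of its group (log2 difference -0.14 ± 0.077, edgeR adjusted p 0.812).

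The other 5 lipid genes differed by less than the spread between libraries. Galc, the galactosylceramidase, was at 182 ± 12.6 and 194 ± 17.9 CPM in controls and knock-ins. Smpd1, acid sphingomyelinase, was at 30.1 ± 2.36 and 31.4 ± 1.52 CPM. Gm2a, the activator that lifts GM2 ganglioside out of the membrane for the hexosaminidase, was at 574 ± 65.03 and 560.4 ± 53.8 CPM. Pla2g15, a lysosomal phospholipase, was at 177 ± 6.82 and 177 ± 15.5 CPM, and Ppt1, which removes palmitate from proteins, was at 120.4 ± 10.1 and 116 ± 9.43 CPM.

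All 3 genes for the peptidase and the acid phosphatases had a slightly lower mean in the knock-in, with a median log2 difference of -0.041 and 0 that passed the adjusted test. Tpp1, a tripeptidyl peptidase, was at 449 ± 37.01 and 445 ± 24.05 CPM in controls and knock-ins, and Acp2, lysosomal acid phosphatase, at 226 ± 8.72 and 219 ± 15.9 CPM. Acp5, the tartrate-resistant acid phosphatase known from osteoclasts and activated macrophages, had by far the widest spread of the set (53.5%). It was at 105, 40.8, 54.1, 109 and 28.2 CPM in controls 1 to 5 and 43.6, 34.3, 50.5, 95.1 and 34.9 CPM in knock-ins 1 to 5. Controls 1 and 4 and knock-in 4 were high and the other 7 libraries low, with both genotypes in both ranges. The groups differed on the log2 scale by -0.39 ± 0.46 with a 95% interval from -1.44 to 0.65, and by -0.007 without those 3 libraries. Leaving out 1 library at a time moved that difference between -0.73 and -0.14.

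Npc1 and Npc2 act in sequence to pass cholesterol from the lumen to the lysosomal membrane and out. Both had a slightly higher mean in the knock-in. Npc1 was at 285 ± 6.58 and 291 ± 20.9 CPM in controls and knock-ins, and Npc2 at 1034 ± 16.9 and 1088 ± 114 CPM, with log2 differences of 0.031 ± 0.056 and 0.074 ± 0.068. Neither passed the adjusted test.

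Membrane proteins sit in the membrane that bounds the lysosome, and some carry enzymes to it. Of the 6, 2 had a higher and 4 a lower mean in the knock-in, with a median log2 difference of -0.023, and 0 passed the adjusted test. Laptm4a, a small protein that spans the lysosomal membrane several times (ENSMUSG00000020585, chromosome 12, 8921664 to 8938742, plus strand), was at 251, 250.4, 249, 244 and 236 CPM in controls 1 to 5 and at 219.5, 213, 230.1, 238 and 230.2 CPM in knock-ins 1 to 5. Only knock-in 4 exceeded the lowest control, control 5, and the spread within groups was small (3.54%). The groups differed on the log2 scale by -0.12 ± 0.049, with an unadjusted p of 0.0298 and an edgeR adjusted p of 0.744 (range over the alternative settings 0.540 to 0.987).

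Scarb2, the receptor that brings glucocerebrosidase to the lysosome, was at 180.5, 130.1, 132, 159 and 139.6 CPM in controls 1 to 5 and 161, 157, 159.6, 173 and 170.2 CPM in knock-ins 1 to 5. Controls 2, 3 and 5 were below every knock-in, and control 1 was above every knock-in. The groups differed on the log2 scale by 0.15 ± 0.085, with an edgeR adjusted p of 0.819 (range over the alternative settings 0.159 to 1). Without controls 1 and 4 and knock-in 4 it was 0.27, with an unadjusted p of 9.42e-04 and an edgeR adjusted p of 0.159, the lowest that any member reached in the 21 alternative settings.

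Lamp1 (ENSMUSG00000031447, chromosome 8, 13159161 to 13175338, plus strand) was at 2512, 2495, 2626, 2654 and 2501 CPM among controls and 2387, 2327, 2531, 2625 and 2590.4 CPM among knock-ins. The groups of Lamp1 lay over each other (log2 difference -0.037 ± 0.052). Its relative Lamp2, which also serves autophagy by chaperones, was at 835 ± 49.2 and 831 ± 59.1 CPM in controls and knock-ins. Cd63, a tetraspanin of late endosomes, was at 1081 ± 79.3 and 1025 ± 64.98 CPM, and Laptm5, a lysosomal protein of blood cells, at 1153 ± 156 and 1244 ± 87.6 CPM.

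Channels and transporters let ions and digested products out of the lysosome. Of the 4, 2 had a higher and 2 a lower mean in the knock-in, with a median log2 difference of -0.012, and 0 passed the adjusted test. Slc17a5, the exporter of sialic acid, was at 72.5, 64.7, 57.6, 69.2 and 72.01 CPM in controls 1 to 5 and 56.1, 51.2, 55.4, 72.97 and 64.1 CPM in knock-ins 1 to 5. Knock-ins 1, 2 and 3 were below every control, whereas knock-in 4 was the highest of all 10 libraries (log2 difference -0.16 ± 0.095, edgeR adjusted p 0.819). Ctns, the exporter of cystine, was at 46.7, 43.6, 41.4, 42.8 and 46.5 CPM among controls and 44.9, 45.96, 43.7, 48.4 and 55.9 CPM among knock-ins. Knock-in 5 was far above all other libraries of Ctns, and the rest overlapped (log2 difference 0.11 ± 0.070, edgeR adjusted p 0.839). Mcoln1, a calcium channel of the lysosomal membrane, was at 59.6 ± 1.81 and 56.8 ± 3.44 CPM in controls and knock-ins, and Cln3 at 61.02 ± 5.17 and 62.9 ± 2.98 CPM.

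**Figure D3:**
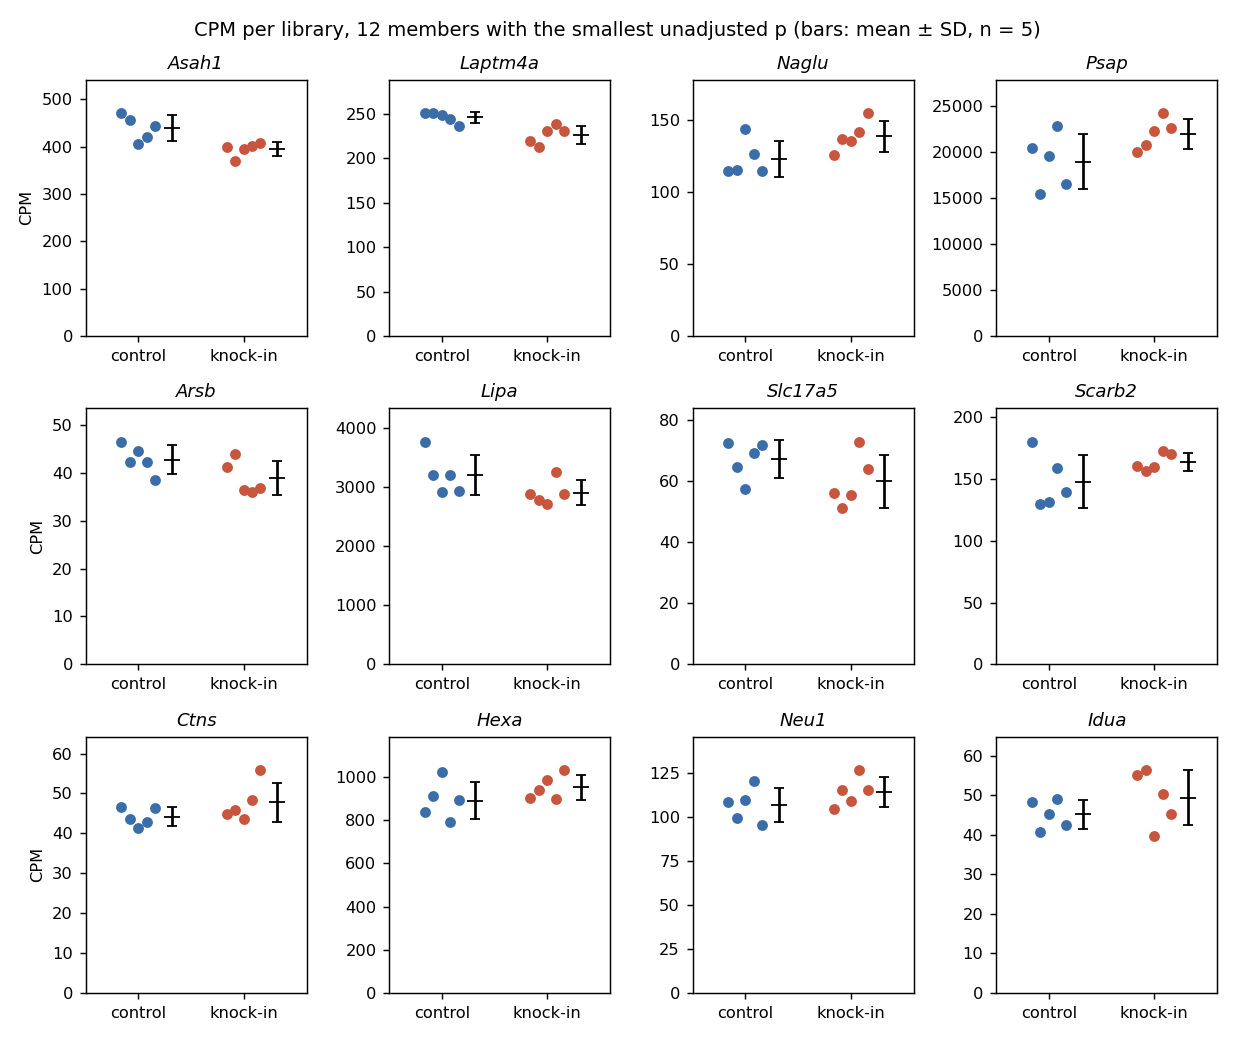
CPM in every library for the 12 genes with the smallest unadjusted p, control in blue and knock-in in red, each axis starting at 0; bars give the mean ± SD of 5 libraries. In all 12 panels the points of the groups overlap.

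None of the 3 transcription factors passed the test, and their median log2 difference was 0.032. Tfeb (ENSMUSG00000023990, chromosome 17, 47737030 to 47792419, plus strand) was at 39.95, 46.6, 62.5, 55.9 and 50.1 CPM in controls 1 to 5 and at 56.01, 55.6, 58.1, 48.7 and 54.4 CPM in knock-ins 1 to 5. The lowest and the highest Tfeb values were both controls, controls 1 and 3, and the 5 knock-ins lay between them. The groups differed on the log2 scale by 0.10 ± 0.10 with a 95% interval from -0.12 to 0.32 (edgeR adjusted p 0.897). Tfe3 was at 131, 138, 145, 136 and 135 CPM among controls and 137, 140.1, 135, 129 and 135 CPM among knock-ins. It had the smallest spread of the 43 (3.42%), and its log2 difference was -0.016 ± 0.047, with an interval from -0.12 to 0.086. Mitf was at 129, 140.02, 149, 138 and 146 CPM among controls and 163, 139.8, 137, 143 and 134 CPM among knock-ins. Knock-in 1 was the highest Mitf value and the other knock-ins lay within the range of the controls (log2 difference 0.032 ± 0.063). These are levels of RNA, and the phosphorylation and location of the proteins were not measured.

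Genes around the control of Tfeb were taken from a list of 22, which covers the kinase complex mTORC1, the Rag GTPases and their anchor, folliculin and its partners, the TSC complex and the calcineurin that dephosphorylates Tfeb. It also holds Ywhaz, a 14-3-3 protein of the family that retains phosphorylated Tfeb in the cytoplasm, and Tfec, a relative of Tfeb that is not upstream of it. All 22 were tested, 15 with a higher and 7 with a lower mean in the knock-in, with a median log2 difference of 0.067, and 0 passed the adjusted test in edgeR. At an unadjusted p under 0.05 there were 4, all higher, against 3.29% of all genes in that direction. Ppp3cb, a catalytic subunit of calcineurin, was at 40.7 ± 3.78 CPM in controls and 47.97 ± 2.24 CPM in knock-ins (log2 difference 0.24 ± 0.066, unadjusted p 0.00307, edgeR adjusted p 0.521, range over the alternative settings 0.202 to 0.951). Rragd, a Rag GTPase, was at 39.7 ± 3.04 and 47.2 ± 6.87 CPM in controls and knock-ins (log2 difference 0.25 ± 0.091). Fnip2, a folliculin partner, was at 314 ± 41.2 and 375 ± 48.6 CPM (log2 difference 0.26 ± 0.10). Tsc1, a subunit of the complex that restrains mTORC1, was at 49.4, 53.2, 52.6, 51.6 and 48.7 CPM among controls and 53.5, 55.7, 53.4, 58.2 and 60.5 CPM among knock-ins. The Tsc1 values of the groups did not overlap, the 1 gene of the 22 for which that held, against 1.32% of all genes, and its edgeR adjusted p was 0.706.

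Further lysosomal genes, such as other hydrolases, the mannose 6-phosphate sorting machinery and other transporters of the lysosomal membrane, were listed as a set of 58, of which 56 were tested. There 31 had a higher and 25 a lower mean in the knock-in, with a median log2 difference of 0.0069, and 0 passed the adjusted test in edgeR. At an unadjusted p under 0.05 there was 1 of the 56, against 6.21% of all genes, and leaving out 1 library moved that count between 1 and 4, with 4 without control 3 or knock-in 2. It was Sumf1, which builds the active site of all sulfatases. Sumf1 was at 105, 105, 97.1, 107 and 102 CPM among controls and 88.5, 86.8, 92.3, 98.8 and 94.7 CPM among knock-ins, with the groups close but overlapping (log2 difference -0.16 ± 0.051, unadjusted p 0.00734, edgeR adjusted p 0.655, range over the alternative settings 0.311 to 0.987). The next by p were Tmem106b, at 93.7 ± 4.69 and 103 ± 9.08 CPM, Litaf, at 311 ± 23.04 and 342 ± 22.1 CPM, and Ostm1, at 120.3 ± 4.89 and 129 ± 7.22 CPM in controls and knock-ins.

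Several lysosomal genes were highest in the libraries where stromal and neutrophil markers were high. For 8 of the 43 members (18.6%) the 3 highest values fell in exactly controls 1 and 4 and knock-in 4, which was so for 5.94% of all tested genes. They were Acp5, Man2b1, Galns, Gm2a, Lipa, Tpp1, Lamp2 and Cd63. The same held for 11 of 12 tested stromal markers, 6 of 8 neutrophil markers and 3 of 12 macrophage markers (25%; Itgam, Mertk and Mrc1). Only Cln3 among the members had its 3 lowest values there, as did 5.15% of all genes. Man2b1 was at 891, 738, 798, 904 and 705 CPM in controls 1 to 5 and 723, 737, 783, 932 and 766 CPM in knock-ins 1 to 5. Its values in controls 1 and 4 and knock-in 4 were all above the highest of the other 7 libraries. Lamp2 was at 862, 795, 802, 909 and 808 CPM among controls and 838, 789.7, 803, 931 and 793 CPM among knock-ins, with the same 3 libraries on top by a narrower margin. In bulk RNA, more cells of a type and more RNA per cell cannot be told apart, and the part of stromal cells, neutrophils or the macrophages themselves in these values was not tested.

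Osteoclast markers were compared because Acp5 is one of their known products. Ctsk, the collagen-cutting cathepsin of osteoclasts, was at 164, 81.6, 89.3, 132 and 80.6 CPM in controls 1 to 5 and 70.3, 62.5, 130.2, 141 and 82.6 CPM in knock-ins 1 to 5, with controls 1 and 4 and knock-in 4 on top and knock-in 3 close below. It was the 1 of 7 tested osteoclast markers with that pattern. Dcstamp, needed for the fusion of osteoclast precursors, was at 34.5, 88.9, 76.7, 39.4 and 77.2 CPM in controls 1 to 5 and 117, 82.9, 45.5, 34.5 and 35.5 CPM in knock-ins 1 to 5, with low values in those 3 libraries and in knock-in 5. Calcr, the calcitonin receptor of mature osteoclasts, had a count of 0 in every library, and Oscar reached at most 0.049 CPM. The 9 osteoclast markers listed summed to 1493 to 1597 CPM in those 3 libraries and 1264 to 1496 CPM in the other 7, and most of each sum was Atp6v0d2, a proton pump subunit, at 894 to 1199 CPM.

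**Figure D4:**
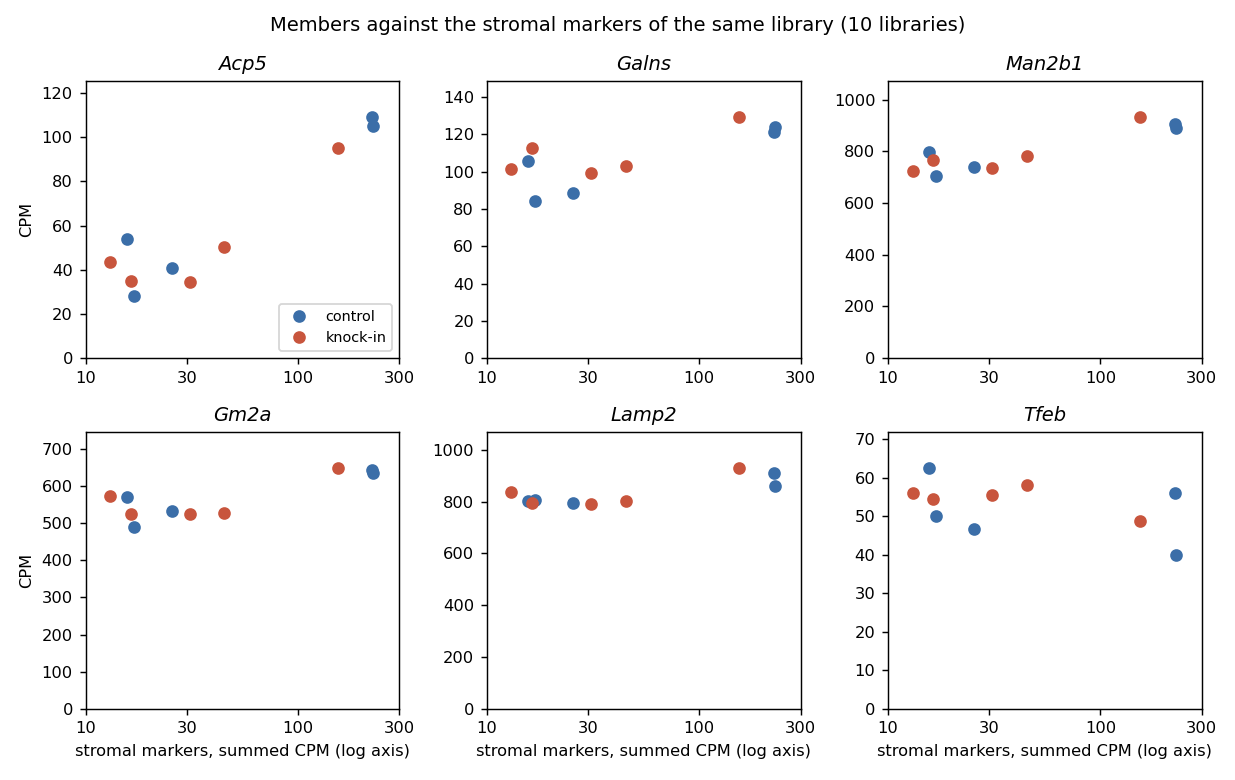
CPM of 6 genes in each library (vertical axis) against the summed CPM of stromal markers in the same library (horizontal log axis), control in blue and knock-in in red. For Acp5, Galns, Man2b1, Gm2a and Lamp2 the 3 libraries on the right are the 3 highest; for Tfeb they are not.

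Within groups, the members had a median coefficient of variation of 8.19%, against 7.26% for the 4917 genes in the same range of CPM. The widest were Acp5 (53.5%), Galns (14.5%) and Tfeb (12.5%), and the narrowest were Tfe3 and Laptm4a. Knock-in 5 was the highest library for 11 members (25.6%), where it was the highest for 10.4% of all genes, and knock-in 4 for 10 (23.3%, against 7.86% of all genes). Knock-in 3 was the highest library for none. Knock-in 5 was on top for Hexa, Gusb, Naglu, Sgsh, Galc, Pla2g15, Acp2, Npc1, Npc2, Mcoln1 and Ctns. Knock-in 4 was on top for Gla, Manba, Man2b1, Neu1, Fuca1, Galns, Psap, Gm2a, Lamp2 and Slc17a5.

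**Figure D5:**
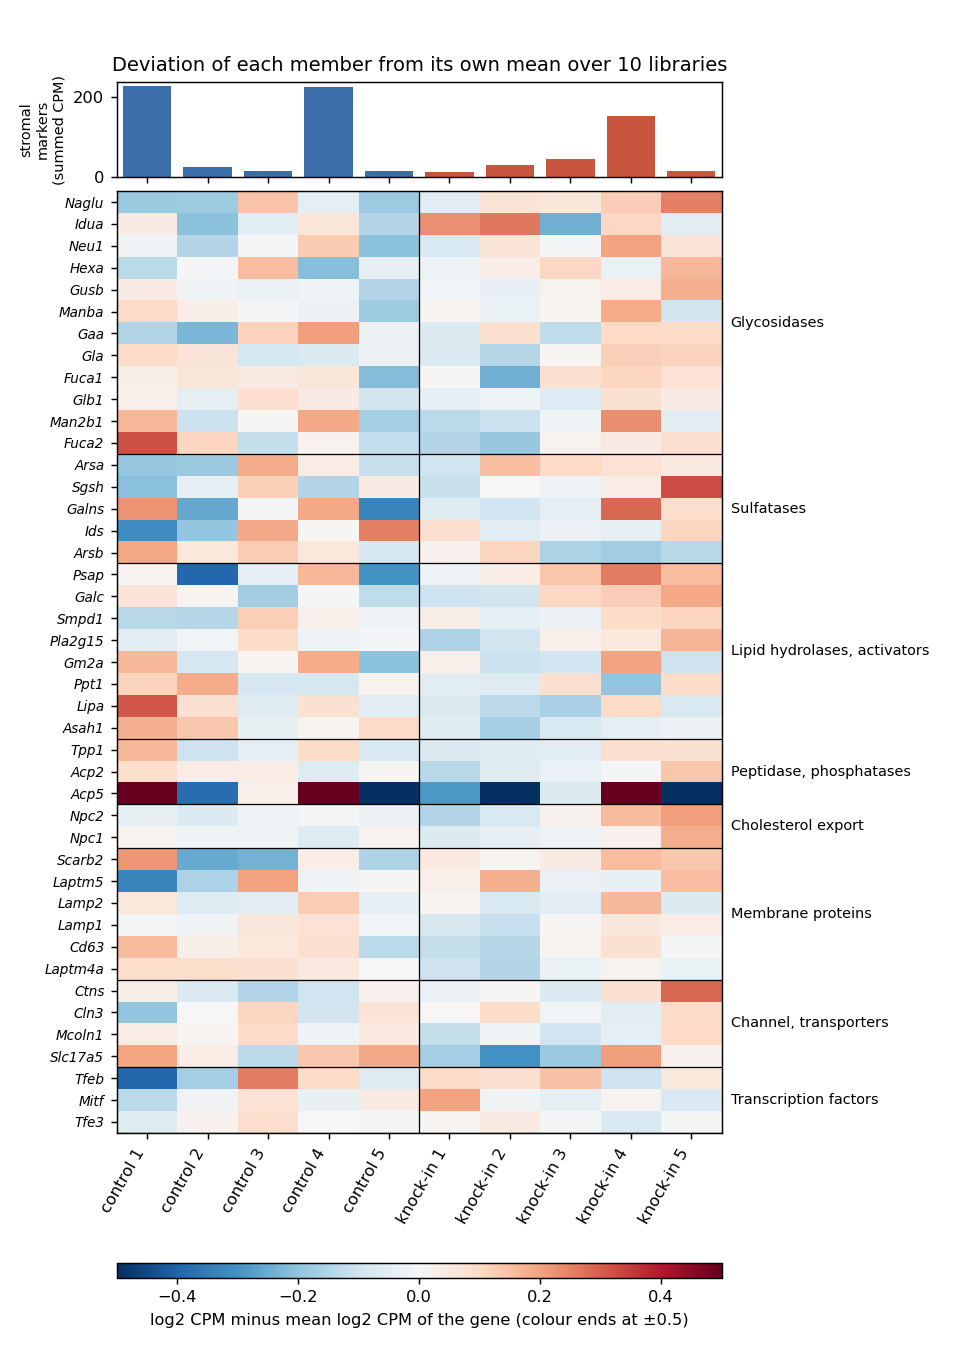
Deviation of each gene's log2 CPM from its own mean over the 10 libraries (red above, blue below, colours end at 0.5), grouped by role, under a bar chart of the summed CPM of stromal markers per library. Acp5 has the strongest colours, in the 3 libraries with tall bars, and no role is uniformly red or blue on one side of the line between genotypes.

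On the scale of the authors' deposited log2 values 23 of the 43 genes had a higher mean in the knock-in, and the differences ran from -0.20 to 0.17. Exons of 12 members (Hexa, Idua, Arsa, Arsb, Sgsh, Galc, Ppt1, Acp2, Acp5, Npc1, Lamp1 and Cln3) overlap those of a gene on the other strand, and those of Glb1 overlap Tmppe on the same strand, so reads there could be shared between genes. The longest transcript of each member was also compared with the transcripts of all other genes. No single match at 90% identity or more covered 50% of a member's transcript, and separate matches were not added up.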

How the data were processed

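Estimated counts per gene for 5 control and 5 knock-in libraries, deposited by the authors, were rounded to whole numbers; regularized log2 values deposited by the authors served as an alternative. Salmon 1.6.0, MultiQC and DESeq2 1.34.0 are named, with the builds GRCm39 and mm10, per the submitters' processing notes; the sources used here do not give the annotation or the treatment of strand in counting. Genotypes were taken from the labels. Genes were kept by edgeR's filterByExpr (minimum count 10, minimum total 15), scaled by TMM and tested with edgeR 4.0.16 (R 4.3.3) quasi-likelihood with robust dispersion; a gene was called at a Benjamini-Hochberg adjusted p under 0.05 over 12411 genes. The biological coefficient of variation was 15.6%. Intervals are 95%. Alternatives used limma 3.58.1, DESeq2 1.42.0, other scaling, filters and dispersion, a replicate block, a stromal score, and left-out libraries.

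Positions and exon lengths were taken from the GENCODE annotation of GRCm38, matched by gene identifier without version, which fitted all 43 members. Given with full values were members that were called or did not overlap (0 of each), the 12 with the smallest unadjusted p, Tfeb, Tfe3 and Mitf, the 4 highest per length and the 3 most variable; of the other lists, the 4 smallest p each. Genes shown beside these, such as Man2b1, Lamp2, Ctsk and Calcr, were named after their values were seen. Members and lists were chosen with earlier results of these data known. The test was checked on simulated counts. No libraries of a group were near-identical: the chi-square per gene between any pair was at least 8.75.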

Additional observations from a re-analysis of the deposited data

Results flagged for a closer look

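In 86 groups of 5 values, 1 library stood apart from the other 4 by Dixon's criterion in 3 cases, and chance gives about 1 in 20 groups. Man2b1 in knock-in 4 was at 932 CPM, with the other knock-ins between 723 and 783 CPM. Acp5 in knock-in 4 was at 95.1 CPM, with the other knock-ins between 34.3 and 50.5 CPM. Knock-in 4 is the knock-in library with the most stromal RNA, and the part of that RNA in both values was not tested. Fuca1 in control 5 was at 221 CPM, with the other controls between 262 and 268 CPM.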

How the results depend on the processing

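No member and none of the other lysosomal genes was called in any of 21 alternative settings, and the median log2 difference of the members stayed between -0.010 and 0.032, including all 10 fits that left out 1 library. The replicate numbers gave no clear pairing of the libraries (correlations of same-numbered deviations -0.20, 0.03, 0.04, 0.51 and 0.25). For controls 4 and 5 the best match was the knock-in of the same number, and for controls 1, 2 and 3 it was another. These correlations cannot exclude a pairing. The fit with a replicate block called 0 members with a median of 0.022. At an unadjusted p under 0.05 the count of members ran from 1 to 7 when 1 library was left out, and that of the other lysosomal genes from 1 to 4. The number of genes called over the whole table differed between tools: 10 in edgeR, 45 in DESeq2, and 38 in edgeR without the 3 libraries richest in stromal RNA. It was 23 without knock-in 4 and 6 without control 2 or without knock-in 1, 2 or 3.

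Apart from that of Acp5 (log2 difference -0.39 ± 0.46 in the main fit), only small differences changed sign, and the cause was not tested. On the deposited log2 values this applied to Glb1 (0.00415), Manba (-0.025), Ids (-0.047), Cln3 (-0.041), Tfe3 (0.0025) and Mitf (-0.019). With a stromal score as covariate it applied to Glb1 (0.0038), Man2b1 (0.035), Ids (-0.046), Gm2a (0.030), Pla2g15 (-0.00675), Tpp1 (0.024), Acp5 (0.012) and Lamp2 (0.032). Without the 3 libraries it applied to Gla (-0.0024), Man2b1 (0.0099), Ids (-0.065), Gm2a (0.019), Pla2g15 (-0.032), Tpp1 (0.050), Lamp2 (0.0078), Cln3 (-0.014) and Mitf (-0.012). Leaving out 1 library at a time, the ranges that crossed 0 were those of Fuca1 (-0.0375 to 0.0678), Gaa (-0.023 to 0.090), Galns (-0.012 to 0.13), Gla (-0.017 to 0.050), Glb1 (-0.030 to 0.013), Gm2a (-0.095 to 0.011), Ids (-0.0571 to 0.0786), Lamp2 (-0.054 to 0.027), Man2b1 (-0.105 to 0.0115), Manba (-0.013 to 0.064), Mitf (-0.0182 to 0.0552), Npc1 (-0.013 to 0.052), Pla2g15 (-0.040 to 0.041), Tfe3 (-0.031 to 0.0045) and Tpp1 (-0.041 to 0.029). The sign held in every setting for 26 members.

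The counts of these genes were at least 434 in every library. How depth, the spread between libraries and the number of libraries each limit the test was not compared. RNA levels say nothing of protein, enzyme activity or the location of the transcription factors.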
